A study of Homo sapiens with 18 samples.

Results

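ADAM20P1, a pseudogene of the ADAM family, was measured beside its protein-coding relatives ADAM20, ADAM21, ADAM9, ADAM10 and ADAM17. The members were the probe clusters of the array whose gene symbols were all among these names, which gave 6 clusters, 1 for each gene, of 33297 clusters in the table and 21214 with at least 1 symbol. One cluster named ADAM21 together with the pseudogene ADAM21P1, was left out by that rule, and is described apart. ADAM20P1 had been chosen on its measured values, namely a lower level than control at 48 h with either RHOX vector and a higher level in control arrays at 48 h than at 24 h. For ADAM20P1 those comparisons, and the differences between the time changes built from them, are therefore given as a description with no test.

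The cells were HEK293, a line derived from human embryonic kidney, transiently transfected with Lipofectamine and plasmids from OriGene. RHOXF1 and RHOXF2 are X-linked homeobox transcription factors known from the reproductive tract, and the study asked how their expression changes the transcriptome. There were 6 groups of 3 arrays, namely cells given the RHOXF1 expression vector, the RHOXF2 expression vector or an empty control vector, each collected 24 h or 48 h after transfection. The treatment text names pCMV6-AC-GFP among the plasmids, and whether the RHOX plasmids also carried the fluorescent tag was not stated in the sources used here. Every group had been through transfection, no untransfected cells were used here, and each culture can hold transfected and untransfected cells. The labels speak of biological triplicates, and each p-value sets a difference against the spread between such samples, pooled over the 6 groups. In bulk RNA of this kind, fewer cells making a transcript and less transcript per cell cannot be told apart.

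Values are log2 expression values after robust multi-array averaging (RMA), so that a difference of 1 is a doubling. RHOXF1 read 12.13 to 12.32 in its own arrays and 5.67 to 6.56 in control arrays. The cluster shared by RHOXF2 and RHOXF2B read 12.78 to 12.96 in the RHOXF2 arrays and 6.44 to 7.12 in control arrays, while RHOXF1 read 6.94 to 9.12 in the RHOXF2 arrays. Array medians were 6.68 to 6.82 and lower quartiles 4.86 to 5.02. Of 10 genes expressed by HEK293, 8 lay above the array median on all 18 arrays and 1, NES, lay below it on all of them. All 8 germ cell markers (PRM1, PRM2, TNP1, DAZL, DDX4, SYCP3, PIWIL1 and MAEL) lay below the array median on all 18 arrays, as did all 4 blood cell markers and 3 of 4 hepatocyte markers. Arrays numbered 1 to 9 in the labels were all of 24 h and those numbered 16 to 24 all of 48 h, so time and array number cannot be told apart.

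ADAM proteins are membrane-anchored enzymes that join a metalloprotease domain to a disintegrin domain. ADAM10 and ADAM17 are the main sheddases of most cells: they cut receptors, ligands and adhesion molecules at the cell surface, including Notch, the amyloid precursor protein, tumour necrosis factor and ligands of the EGF receptor. ADAM9 is a further widely expressed sheddase, ADAM20 and ADAM21 are known from the testis, and ADAM20P1 is a pseudogene that is not known to make a protein.

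RHOX factors belong to the homeobox class, whose members often bind DNA at a TAAT core. For this reason the promoters of the testis genes and of 1 broadly expressed sheddase are shown, from RefSeq on GRCh38.p14, each written 5′ to 3′ on the gene's own strand from 250 bases before the start to 50 bases after it. Of the 6 members, 4 had a promoter sequence that could be printed (ADAM20, ADAM21, ADAM10 and ADAM17), and ADAM20P1 and ADAM9 are named only. Capitals mark TAAT, which reads ATTA on the opposite strand. Overlapping matches, as in TAATTA, were counted separately. The ADAM20 promoter is chr14:70534955-70535254 on the minus strand, that of ADAM21 is chr14:70451924-70452223 on the plus strand, and that of ADAM10 is chr15:58749658-58749957 on the minus strand.
ADAM20: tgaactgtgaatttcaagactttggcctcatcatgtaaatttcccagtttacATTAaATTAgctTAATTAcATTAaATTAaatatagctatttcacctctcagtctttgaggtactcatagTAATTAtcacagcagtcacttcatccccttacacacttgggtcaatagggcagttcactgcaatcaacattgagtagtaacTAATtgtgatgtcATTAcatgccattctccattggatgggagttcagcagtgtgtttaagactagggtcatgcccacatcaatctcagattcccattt
ADAM21: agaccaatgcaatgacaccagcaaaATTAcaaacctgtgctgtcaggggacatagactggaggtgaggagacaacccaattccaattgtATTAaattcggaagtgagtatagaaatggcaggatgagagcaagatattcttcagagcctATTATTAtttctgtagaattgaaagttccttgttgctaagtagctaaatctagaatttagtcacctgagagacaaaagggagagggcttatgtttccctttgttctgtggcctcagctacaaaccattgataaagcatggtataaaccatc
ADAM10: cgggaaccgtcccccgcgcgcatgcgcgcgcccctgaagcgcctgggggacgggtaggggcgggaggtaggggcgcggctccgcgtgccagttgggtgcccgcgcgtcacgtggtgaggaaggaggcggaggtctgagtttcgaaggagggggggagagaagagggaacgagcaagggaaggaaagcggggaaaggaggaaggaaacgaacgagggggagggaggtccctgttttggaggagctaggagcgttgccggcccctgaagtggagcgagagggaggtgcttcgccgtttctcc

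The ADAM20 window held 10 matches to TAAT on either strand, and 0.5% of the 35116 promoters of this length held as many. The ADAM21 window held 4, and 12.2% of promoters held as many. The ADAM10 window held 0, as did that of ADAM17 at chr2:9555781-9556080 on the minus strand, whereas 50.2% of all promoters held at least 1. Base composition differed as well: the GC content was 37.3% for ADAM20 and 40% for ADAM21, against 68.0% for ADAM10, 74.7% for ADAM17 and a median of 58.7% over all promoters. The dinucleotide CG occurred 0 times in the ADAM20 window and 1 time in that of ADAM21, against 30 times in ADAM10 and 36 times in ADAM17, with a median of 14. A match of letters is a description of the window and no evidence of binding.

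ADAM20P1 was low in every group except control at 48 h. At 24 h it read 4.22, 4.38 and 4.14 in control arrays (4.25 ± 0.12, SD, n = 3), 4.21, 4.05 and 4.10 in RHOXF1 arrays (4.12 ± 0.08) and 4.02, 4.21 and 4.28 in RHOXF2 arrays (4.17 ± 0.13). The 3 groups of 24 h overlapped. At 48 h it read 4.88, 5.27 and 5.51 in control arrays (5.22 ± 0.32), 4.38, 4.04 and 3.98 in RHOXF1 arrays (4.14 ± 0.22) and 4.20, 4.50 and 4.15 in RHOXF2 arrays (4.28 ± 0.19). All 3 control arrays of 48 h lay above each of the other 15 arrays.

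The order of the ADAM20P1 group means was control at 48 h, RHOXF2 at 48 h, control at 24 h, RHOXF2 at 24 h, RHOXF1 at 48 h and RHOXF1 at 24 h. A gap of 0.38 separated the lowest control array of 48 h from the highest RHOXF2 array of 48 h. Every other pair of neighbours in that order overlapped. The cluster was dim: it lay below the lower quartile of its own array on 16 of 18 arrays, and it ranked between the 13.1st and 33.0th percentile of the array's clusters. The 2 arrays on which it stood above the lower quartile were replicates 2 and 3 of control at 48 h.

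The differences that had served to choose ADAM20P1 were -1.08 on the log2 scale for RHOXF1 against control at 48 h (SE 0.14) and -0.94 for RHOXF2 against control at 48 h (SE 0.14). Both used the same 3 control arrays. In control cells the level at 48 h was 0.97 above that at 24 h (SE 0.14), which also rests on those arrays. No fold is given, since outside control at 48 h the cluster lay below the lower quartile on every array, where a level near background limits what a difference can show. Left out in turn, replicate 1 of control at 48 h gave the widest differences (-1.26, -1.11 and 1.15) and replicate 3 the narrowest (-0.94, -0.79 and 0.83).

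Comparisons that had not served to choose ADAM20P1 showed no difference past the test's threshold, an adjusted p under 0.05 from limma over all 21214 named clusters. Except for RHOXF1 against RHOXF2 at 24 h, they share arrays with the choice. Their p-values and intervals are therefore not independent of it. At 24 h RHOXF1 differed from control by -0.13 (SE 0.14, adjusted p = 0.969) and RHOXF2 by -0.08 (SE 0.14, adjusted p = 0.941). RHOXF1 arrays read 0.02 higher at 48 h than at 24 h (SE 0.14, adjusted p = 0.963, 95% interval -0.27 to 0.32), and RHOXF2 arrays 0.11 higher (SE 0.14, adjusted p = 0.756, 95% interval -0.19 to 0.41). RHOXF1 minus RHOXF2 was -0.05 among the arrays of 24 h (adjusted p = 1) and -0.14 among those of 48 h (adjusted p = 0.998, 95% interval -0.44 to 0.15).

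**Figure D1:**
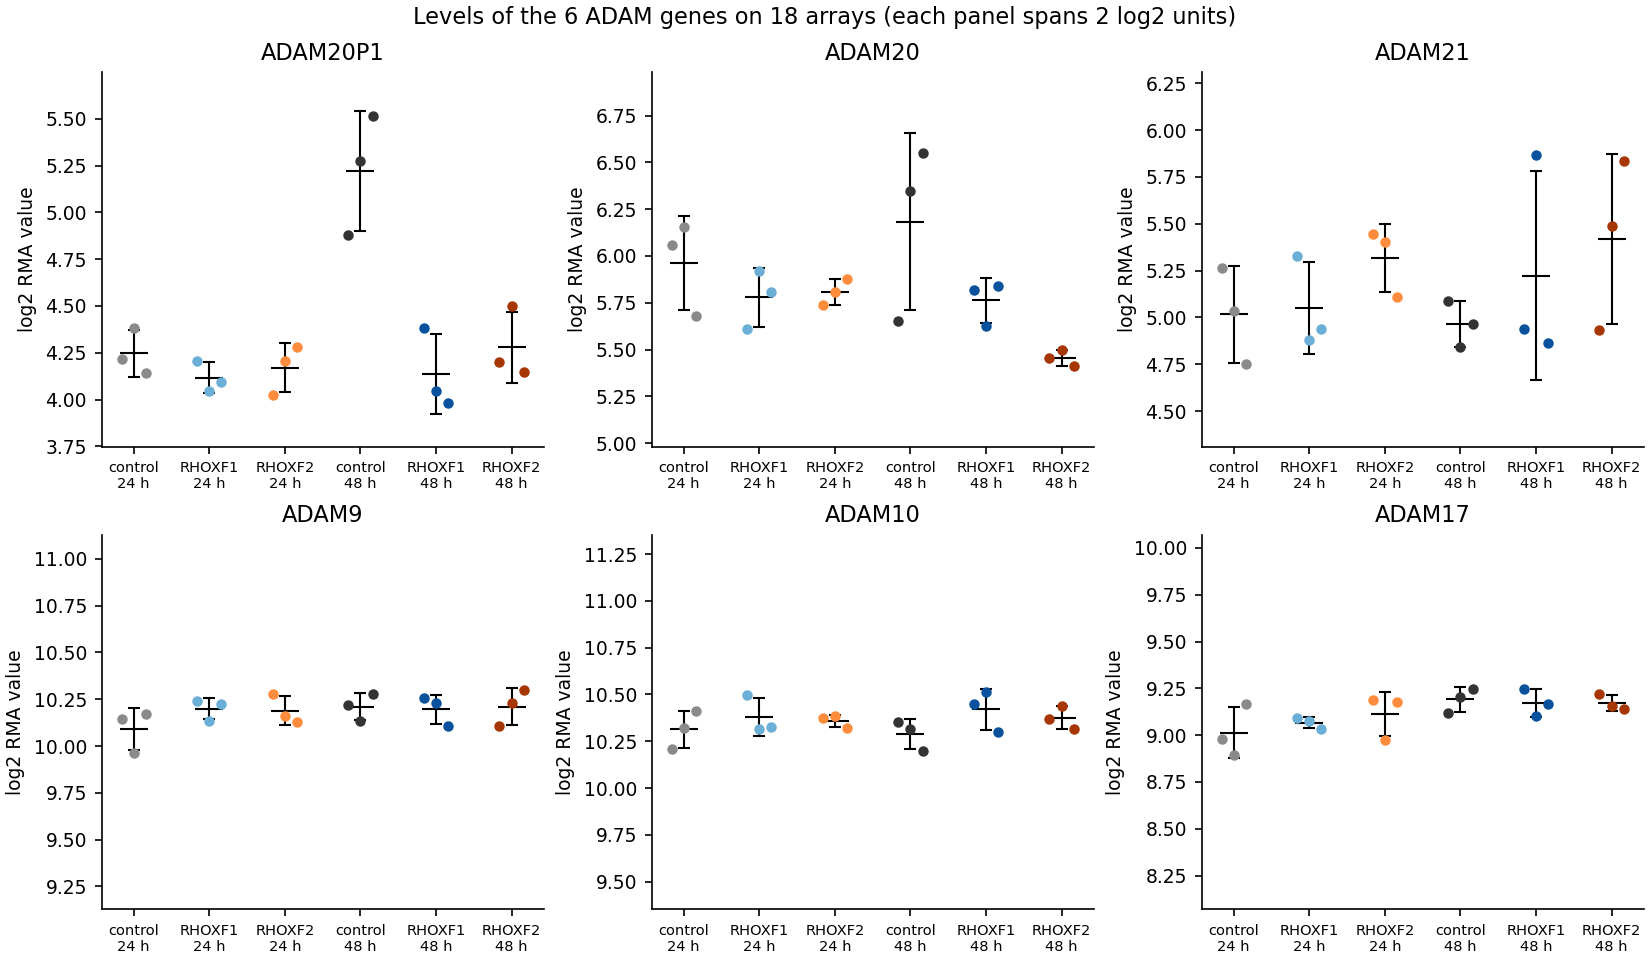
Log2 RMA value of each ADAM gene (vertical axes, each spanning 2 log2 units) in the 6 groups of 3 arrays; points are arrays in replicate order, and the bar gives the mean and SD. ADAM20P1 is high only in the control arrays of 48 h (4.88 to 5.51), ADAM20 is lowest in RHOXF2 arrays of 48 h, and ADAM9, ADAM10 and ADAM17 vary little.

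The lowest p-value among the limma tests of members was for RHOXF2 against control at 48 h. That comparison uses arrays on which ADAM20P1 was chosen. The member was ADAM20, the protein-coding gene next to ADAM20P1. At 48 h ADAM20 read 5.65, 6.35 and 6.55 in control arrays (6.18 ± 0.47), 5.82, 5.63 and 5.84 in RHOXF1 arrays (5.76 ± 0.12) and 5.45, 5.50 and 5.41 in RHOXF2 arrays (5.45 ± 0.04). The RHOXF2 arrays lay wholly below the control arrays, a separation in that direction seen in 5.24% of all named clusters, and the RHOXF1 arrays overlapped them. RHOXF2 differed from control by -0.73 (SE 0.17, 95% interval -1.08 to -0.38, adjusted p = 0.124) and RHOXF1 by -0.42 (SE 0.17, adjusted p = 0.634). Neither passed limma's threshold.

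The ADAM20 result at 48 h depended on single control arrays. Replicate 1 of control at 48 h, at 5.65, lay within the RHOXF1 range, while the other 2 control arrays lay above every array of all other groups. Without that array the RHOXF2 difference was -0.99 and passed the threshold (adjusted p = 0.00145), the change of control cells between the times was 0.49 instead of 0.22 and passed it as well (adjusted p = 0.013 instead of 0.365), and the RHOXF1 difference was -0.69 (adjusted p = 0.102). Without replicate 3, the highest control array, the values shrank to -0.55 for RHOXF2, -0.24 for RHOXF1 and 0.04 for the control change, none past the threshold.

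At 24 h ADAM20 read 6.06, 6.15 and 5.68 in control arrays (5.96 ± 0.25), 5.61, 5.92 and 5.81 in RHOXF1 arrays (5.78 ± 0.16) and 5.74, 5.81 and 5.88 in RHOXF2 arrays (5.81 ± 0.07). These groups overlapped, with differences from control of -0.18 (adjusted p = 0.969) and -0.16 (adjusted p = 0.873). Between the times the RHOXF2 arrays moved by -0.35 (SE 0.17, adjusted p = 0.291), with all arrays of 48 h below those of 24 h, which 8.11% of named clusters also showed. The RHOXF1 arrays differed by -0.02 (adjusted p = 0.975). Against the control change, the RHOXF2 change was -0.57 (SE 0.23, adjusted p = 0.557). At 48 h the RHOXF1 arrays all lay above the RHOXF2 arrays, as 4.78% of named clusters did, with a difference of 0.31 (SE 0.17, adjusted p = 0.998).

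Over the 18 arrays the ADAM20 and ADAM20P1 clusters had a Pearson correlation of 0.65 and a Spearman correlation of 0.31, given as a description. The Pearson value came from the control arrays of 48 h: over the other 15 arrays it was 0.04, and without the 2 arrays farthest from the ADAM20P1 median it was -0.07. In control at 48 h both clusters had the same order of arrays, with replicate 1 lowest and replicate 3 highest. How far either cluster also reads transcripts of its relatives was not tested, as the probe sequences were not used here.

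**Figure D2:**
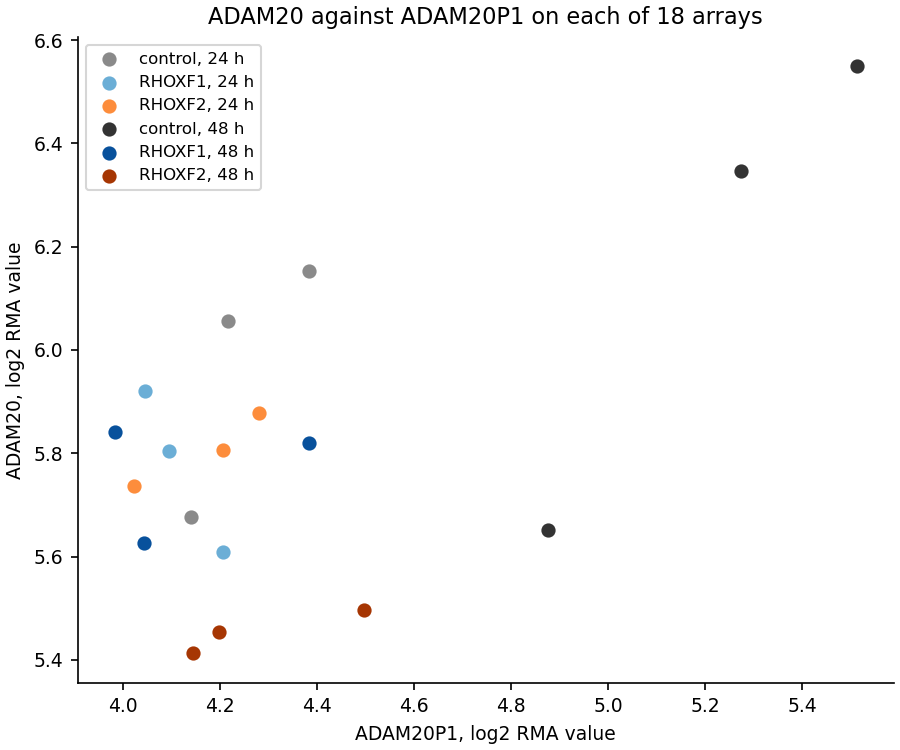
ADAM20 (vertical axis) against ADAM20P1 (horizontal axis), both as log2 RMA values, with 1 point per array coloured by group. The 3 control arrays of 48 h stand to the right, at 4.88 to 5.51 for ADAM20P1, and the remaining 15 arrays show no slope (Pearson correlation 0.04).

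ADAM21, on the other side of ADAM20P1, did not share the negative differences from control at 48 h. It read 5.09, 4.84 and 4.97 in control arrays of 48 h (4.96 ± 0.12), 4.94, 5.87 and 4.86 in RHOXF1 arrays (5.22 ± 0.56) and 4.93, 5.49 and 5.84 in RHOXF2 arrays (5.42 ± 0.46). Both RHOX groups spread widely and overlapped the control arrays. The differences from control were 0.26 for RHOXF1 (SE 0.23, adjusted p = 0.853) and 0.45 for RHOXF2 (SE 0.23, adjusted p = 0.445). The RHOXF1 difference rested on replicate 2, without which it was -0.06. The RHOXF2 difference was 0.25 without RHOXF2 replicate 3 and 0.70 without replicate 1.

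At 24 h ADAM21 read 5.26, 5.03 and 4.75 in control arrays (5.02 ± 0.26), 5.33, 4.88 and 4.94 in RHOXF1 arrays (5.05 ± 0.24) and 5.44, 5.40 and 5.11 in RHOXF2 arrays (5.32 ± 0.18). All 3 ranges overlapped, and the differences from control were 0.03 (adjusted p = 0.997) and 0.30 (adjusted p = 0.807). In the order of its 6 group means, from RHOXF2 at 48 h at the top to control at 48 h at the bottom, every pair of neighbours overlapped. On 5 of 18 arrays the gene lay below the array's lower quartile.

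The cluster that names ADAM21P1 together with ADAM21 read 5.27, 5.35 and 5.46 in control arrays of 48 h (5.36 ± 0.10), 5.66, 5.98 and 5.48 in RHOXF1 arrays (5.71 ± 0.25) and 5.65, 6.24 and 5.85 in RHOXF2 arrays (5.91 ± 0.30). All RHOX arrays of 48 h lay above all control arrays of that time, as did 7.17% of named clusters for RHOXF1 and 6.59% for RHOXF2. The differences were 0.35 for RHOXF1 (SE 0.15, adjusted p = 0.668) and 0.55 for RHOXF2 (SE 0.15, adjusted p = 0.21), and neither passed the threshold. The sign was opposite to that of ADAM20P1 and ADAM20 in the same arrays.

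The widely expressed sheddases were bright and varied little. ADAM10 read 10.20 to 10.51 over all 18 arrays, between the 89.7th and 91.9th percentile of each array, with control means of 10.31 ± 0.10 at 24 h and 10.29 ± 0.08 at 48 h. Its largest difference from control was 0.13 for RHOXF1 at 48 h (SE 0.08, 95% interval -0.04 to 0.30, adjusted p = 0.763), where the arrays read 10.45, 10.51 and 10.30 against 10.35, 10.32 and 10.20 in control. The other 3 differences of ADAM10 from control were 0.05 to 0.09, and all the ranges overlapped.

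ADAM17 read 8.90 to 9.25, above the median of every array. It read 8.98, 8.90 and 9.16 in control arrays of 24 h and 9.12, 9.20 and 9.25 in those of 48 h, a difference of 0.18 with overlapping ranges (SE 0.08, adjusted p = 0.14). In RHOXF1 cells the change was 0.10 (SE 0.08, adjusted p = 0.535); all arrays of 48 h lay above those of 24 h, as in 15.1% of named clusters. At 48 h both RHOX groups differed from control by -0.02 (SE 0.08, adjusted p = 0.981 for RHOXF1 and 0.958 for RHOXF2).

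ADAM9 read 9.96 to 10.30. Its control mean was 10.09 ± 0.11 at 24 h and 10.21 ± 0.07 at 48 h, a difference of 0.12 (SE 0.08, adjusted p = 0.319). Its differences from control at 24 h were 0.11 with RHOXF1 (adjusted p = 0.961) and 0.10 with RHOXF2 (adjusted p = 0.826). The same differences at 48 h were -0.01 (adjusted p = 0.987) and 0.00 (adjusted p = 0.999). At 48 h the 95% intervals of ADAM9, ADAM10 and ADAM17 against control lay between -0.19 and 0.30.

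The SD within groups of the members ran from 0.08 for ADAM9 to 0.34 for ADAM21. The range of the 6 group means was 1.10 for ADAM20P1, 0.73 for ADAM20, 0.45 for ADAM21, 0.18 for ADAM17, 0.13 for ADAM10 and 0.12 for ADAM9. For ADAM21, ADAM10 and ADAM9 no neighbouring pair of group means had separate ranges, and the same was true of ADAM17.

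**Figure D3:**
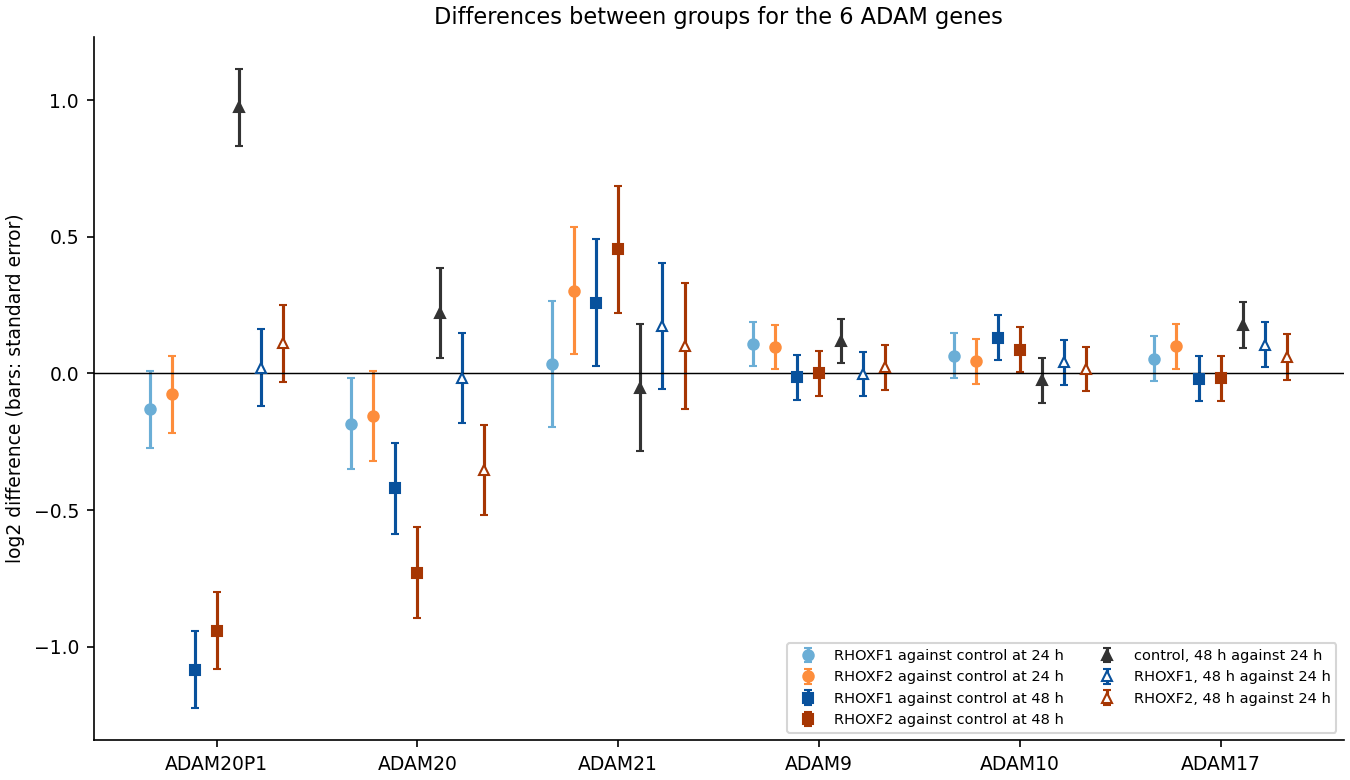
Log2 difference (vertical axis) of each ADAM gene in the 4 comparisons with control and the 3 comparisons of 48 h with 24 h; bars are standard errors from limma. ADAM20P1 has the widest differences (-1.08, -0.94 and 0.97), ADAM20 follows with -0.73 for RHOXF2 at 48 h, and the sheddases lie near 0.

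In no comparison did limma call a tested member, and ADAM20P1 was not tested in those used for its choice. Against control at 24 h it called 0 of 6 members for RHOXF1 and 0 of 6 for RHOXF2, with 0 at an unadjusted p under 0.05, beside 0.00471% and 0.00943% of all named clusters. At 48 h, with ADAM20P1 set aside, it called 0 of 5 for RHOXF1 and 0 of 5 for RHOXF2, with 1 at an unadjusted p under 0.05 in each (ADAM20), beside 0.00943% and 0.0943%. Between RHOXF1 and RHOXF2 it called 0 of 6 at 24 h and 0 of 6 at 48 h, with 0 at an unadjusted p under 0.05, beside 0.0141% and 0.0519%.

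Between 24 h and 48 h limma called 17.8% of named clusters in control cells, 4.42% in RHOXF1 cells and 1.24% in RHOXF2 cells, a decline that was not itself tested. The last of these depend on single arrays: without replicate 3 of 24 h 13 clusters were called in RHOXF1 cells in place of 937, without replicate 2 of 24 h 4 in RHOXF2 cells in place of 264, and without replicate 3 of 48 h 2073 in control cells in place of 3772. Of the members it called 0 of 5 in control cells, with 1 at an unadjusted p under 0.05 (ADAM17), 0 of 6 in RHOXF1 cells, with 0, and 0 of 6 in RHOXF2 cells, with 1 (ADAM20). For the difference between the RHOXF1 and control time changes, limma called 0 of 5 members, with 0 at an unadjusted p under 0.05, beside 0% of clusters. For RHOXF2 these were 0 of 5 and 1 (ADAM20), beside 0.0141%.

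In the RefSeq gene order, ADAM20P1 lies between ADAM21 and ADAM20. Beyond ADAM21 come SYNJ2BP, COX16, ADAM21P1 and SLC8A3, and beyond ADAM20 come TTC9, MAP3K9, PCNX1 and SIPA1L1. None of the 10 clusters on either side passed the threshold against control, beside at most 0.0943% of named clusters. None passed it between the times, beside 17.8% in control, 4.42% in RHOXF1 and 1.24% in RHOXF2 cells. At 48 h TTC9 differed from control by 0.07 with RHOXF1 and 0.13 with RHOXF2, MAP3K9 by -0.05 and 0.08, PCNX1 by -0.02 and -0.07, and SIPA1L1 by 0.05 and 0.10. On the far side SLC8A3, a sodium-calcium exchanger gene, differed by -0.01 and -0.05. Apart from the ADAM genes, no neighbour's difference at 48 h exceeded 0.13 in size. The values of ADAM20P1 in these comparisons were those it was chosen for, so its contrast with the neighbours is a description.

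**Figure D4:**
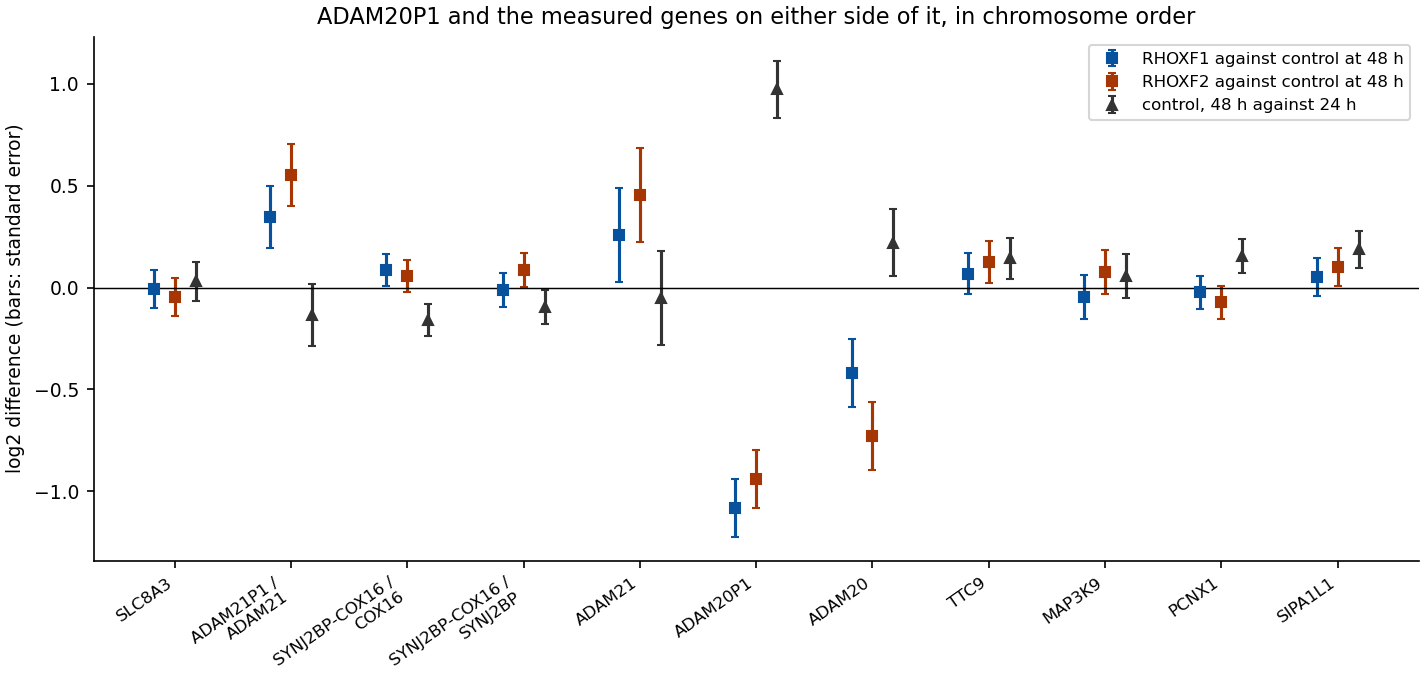
Log2 difference (vertical axis; bars are standard errors) of ADAM20P1 and of the 5 measured clusters on either side, in chromosome order on the horizontal axis, for RHOXF1 and RHOXF2 against control at 48 h and for control at 48 h against 24 h. The widest negative differences from control at 48 h are those of ADAM20P1 and ADAM20. ADAM20P1 is high only in control at 48 h, and neither ADAM20 difference passed the threshold. Against control ADAM21 and the ADAM21P1 cluster lie above 0 (0.26 to 0.55). Between the times in control they lie below 0 (-0.05 and -0.135).

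The genes whose levels followed ADAM20P1 most closely over the 18 arrays, by Pearson correlation among 19252 clusters, were KHDC4 (0.92), METTL22 (0.88), ATAD5 (0.88), FBXO5 (0.87) and KIAA1328 (0.86). The central 90% of clusters lay between -0.61 and 0.61. KHDC4 read 10.64, 10.67 and 10.69 in control arrays of 48 h, and its means in the other groups were 10.36 to 10.43. As with ADAM20P1, its control arrays of 48 h lay above all other arrays. Picking by correlation favoured genes highest or lowest in control at 48 h, where ADAM20P1 stood apart, so these levels are a description. The most opposite clusters were ACTL6A (-0.88), C19orf25 (-0.87) and NAA50 (-0.86), all lowest in control at 48 h, where ACTL6A averaged 8.99 ± 0.16 against 9.46 ± 0.03 at 24 h.

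These likenesses were weaker without the control arrays of 48 h, least so for KHDC4, which kept 0.84 without the 2 arrays farthest from the ADAM20P1 median. Over the other 15 arrays the correlation with ADAM20P1 was 0.66 for KHDC4, 0.46 for METTL22, 0.48 for ATAD5, 0.41 for FBXO5 and 0.34 for KIAA1328. By Spearman correlation or within groups 0 of these 5 genes stayed among the 5 highest, and over group means 1 did (KHDC4). Of the other members, ADAM17 had a correlation of 0.33 with ADAM20P1, ADAM9 0.11, ADAM21 -0.27 and ADAM10 -0.37, all within the central 90%.

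**Figure D5:**
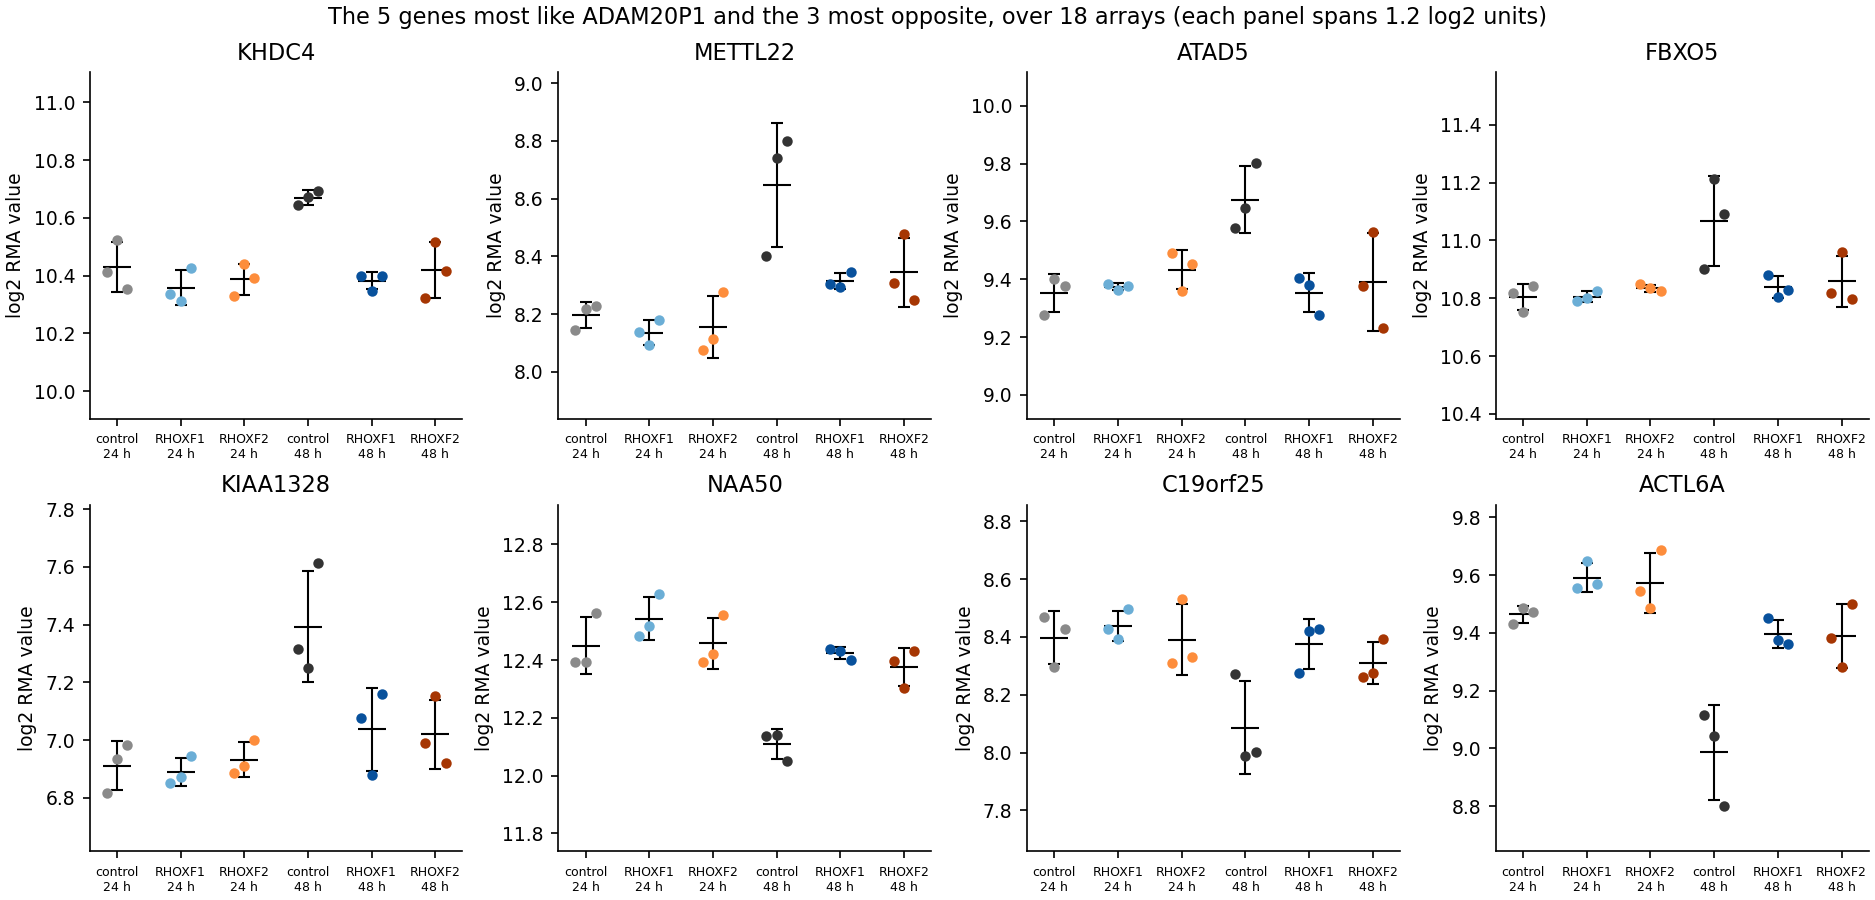
Log2 RMA value (vertical axes, each spanning 1.2 log2 units) of the 5 genes most like ADAM20P1 over the 18 arrays and the 3 most opposite, by group; points are arrays in replicate order, and the bar gives the mean and SD. The 5 like genes are highest in control at 48 h (10.67 for KHDC4) and the 3 opposite genes lowest there (8.99 for ACTL6A). Picking them by correlation with ADAM20P1 favoured this.

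Across the listed ADAM genes, with ADAM20P1 set aside where it was not tested, none was called against control, beside at most 0.0943% of named clusters. The lists include the other members. ADAM20 and ADAM21 stand among the testis-enriched genes, and ADAM9, ADAM10 and ADAM17 among the somatic proteases. The testis-enriched ADAM genes numbered 11 measured, and 10 with ADAM20P1 set aside. Of those 10, 5 were higher and 5 lower with RHOXF1 at 48 h (median -0.009, against 0.008 over all named clusters), and 6 were higher and 4 lower with RHOXF2 (median 0.020, against 0.013). ADAM20 was the lowest of them in both comparisons, and ADAM21 the highest. After ADAM20 the smallest p belonged to ADAM3A, at -0.23 for RHOXF2 against control at 24 h (SE 0.08, adjusted p = 0.486). The 9 somatic ADAM proteases had medians of 0.024 for RHOXF1 and 0.000 for RHOXF2 at 48 h. Among the 4 ADAM genes of other kinds the smallest p was that of ADAM22, a synaptic receptor without protease activity, at -0.27 for RHOXF2 at 48 h (SE 0.12, adjusted p = 0.373).

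Between 24 h and 48 h in control cells limma called 2 of the 9 somatic ADAM proteases, near the 17.8% of all named clusters called: ADAM19 rose by 0.34 (SE 0.11, adjusted p = 0.0376) and ADAM12 fell by 0.26 (SE 0.09, adjusted p = 0.0489). Of the 10 testis-enriched genes it called 0. Both calls stood close to the threshold. That of ADAM12 was lost in 13 of 15 alternatives, among them both other normalizations, the common array median, array weights and the replicate block, and that of ADAM19 in 7 of 16, among them array weights. Without replicate 2 at 24 h ADAM19 read 0.27 (adjusted p = 0.154) and ADAM12 -0.20 (adjusted p = 0.197).

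Among known substrates of ADAM9, ADAM10 and ADAM17 several rose with time. In control cells the enzymes changed by 0.12, -0.03 and 0.18 in that order, none past the threshold. Whether substrates and enzymes differed was not tested. None of the 28 measured substrates was called against control at either time, beside at most 0.0943% of named clusters. Between 24 h and 48 h in control cells 10 were called, beside 17.8% of named clusters, 9 of them higher and 1 lower, with a median over the list of 0.071 against -0.029 over all clusters. The adhesion molecule L1CAM rose by 1.37 (SE 0.24, adjusted p = 0.00152), from 9.02, 8.16 and 8.31 to 9.48, 10.32 and 9.80. The Notch ligand DLL1 rose by 1.12 (SE 0.17, adjusted p = 0.000667), the receptor kinase ERBB4 by 0.83, the adhesion molecule NCAM1 by 0.81 and the Notch ligand JAG1 by 0.80. Smaller rises were those of the interleukin-6 receptor IL6R (0.43), E-cadherin CDH1 (0.36), the phosphatase PTPRK (0.35) and CD44 (0.34), and the growth factor EREG fell by 0.25 (adjusted p = 0.0479).

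With RHOXF1 7 of the 28 substrates were called between the times, all higher (median 0.086), and with RHOXF2 6, all higher (median 0.122), beside 4.42% and 1.24% of clusters. The rise of L1CAM was 1.09 with RHOXF1 (adjusted p = 0.0181) and 1.11 with RHOXF2 (adjusted p = 0.0336). NCAM1, ERBB4, JAG1, CDH1 and IL6R were called in both, and DLL1 with RHOXF1 (0.78, adjusted p = 0.0179) but not with RHOXF2 (0.68, adjusted p = 0.0535). No substrate was called for a difference between the RHOX and control time changes. In control cells the calls of L1CAM, DLL1, ERBB4, NCAM1 and JAG1 held in every alternative run, and those of IL6R, CDH1, PTPRK, CD44 and EREG were each lost in at least 1. All calls in RHOXF1 cells were lost without replicate 3 of 24 h, and replicate 2 of 24 h and replicates 1 and 3 of 48 h each cost several of them. All calls in RHOXF2 cells were lost without replicate 2 or 3 of 24 h or replicate 2 of 48 h, or with only those 6 arrays fitted, and all but that of NCAM1 without replicate 1 of 48 h. Genes typical of HEK293 moved along with time, with 5 of 10 called in control cells beside 17.8% of named clusters, all higher (median 0.268 against -0.029 over all clusters); CDH2 stands on both lists. Their part in the substrate result was not tested.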

How the data were processed

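RNA of 18 HEK293 cultures was read on Affymetrix arrays (Human Gene 1.0 ST in the sample descriptions, exon arrays in the design text). The deposited values are log2 expression values made by the authors with RMA in Expression Console 3.1, per the labels' descriptions and the submitters' processing notes. RMA corrects background, equalises the arrays and summarises probes; the genome build is not given in the sources used here. Symbols came from the platform's probe table: 19460 clusters had 1 symbol, 1754 several and 12083 none. limma 3.58.1 in R 4.3.3 fitted 1 mean per group to the 21214 named clusters without a filter (12 residual and 6.5 prior degrees of freedom, prior SD 0.124), with two-sided moderated tests and Benjamini-Hochberg adjustment over all of them. The script was tested on simulated data. Intervals are at 95%. The members and gene lists were chosen with earlier results of these data known. Named besides the members were the 5 clusters most and 3 least correlated with ADAM20P1, its 5 measured neighbours on either side and, from each list, the genes called or else the 1 with the smallest p against control. Alternatives changed normalization, filter, variance model, array weights, replicate block and arrays. The number of arrays limits the precision.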

Additional observations from a re-analysis of the deposited data

How the results depend on the processing

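Counts of members called left ADAM20P1 out of the comparisons used to choose it. They were 0 in each alternative, except when arrays were left out. That gave 0 to 1 for RHOXF2 against control at 48 h and 0 to 1 for control at 48 h against 24 h. Both calls were ADAM20 without replicate 1 of control at 48 h, and the cause was not tested. ADAM21 for RHOXF1 against control at 48 h ran from -0.0634 to 0.44 when arrays were left out and reversed without RHOXF1 replicate 2 of 48 h. Of 460 combinations of a member difference of at least 1 SE with an alternative, 1 changed sign; of 624 under 1 SE, 69 did, and those were too close to 0 to be read as a direction. Same-numbered arrays were correlated above 0.1 after group means were removed in 8 of 9 pairs at 24 h and 2 of 9 at 48 h. The labels name no block and the main fit used none, so what same-numbered arrays of 24 h share was not modelled. The replicate block gives each number 1 effect over both times, so it cannot check a pairing within 24 h alone. With the replicate block 0 members were called, and the counts over all named clusters went from 2 to 4 for RHOXF1 against control at 48 h and from 264 to 438 for RHOXF2 between the times. Those counts also moved with the arrays: from 20 to between 4 (only the compared groups fitted) and 125 (without replicate 1 of control) for RHOXF2 against control at 48 h, and from 2 to at most 7 for RHOXF2 at 24 h. RHOXF1 against RHOXF2 at 48 h gave 4 to 14 beside 11, and at 24 h 3 to 5. The time comparisons gave 1595 to 4077 in control cells beside 3772, 13 to 2907 in RHOXF1 cells beside 937, and 4 to 848 in RHOXF2 cells beside 264. ADAM20P1 has no value where dim clusters were filtered out, since its mean lay below the lower quartile.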

Other observations

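Among 17 genes listed as regulators of ADAM10 and ADAM17, 0 were called by limma against control in any of the 4 comparisons, beside at most 0.0943% of named clusters. Whether each listed gene, TIMP2 among them, acts on these enzymes was not tested. In control cells between 24 h and 48 h 3 were called, a share close to the 17.8% of all named clusters, and all 3 were higher: RHBDF1, an inactive rhomboid protein that helps ADAM17 to mature, rose by 0.59 (SE 0.08, adjusted p = 0.000481), the metalloprotease inhibitor TIMP3 by 0.60 (SE 0.11, adjusted p = 0.00237) and TIMP2 by 0.50 (adjusted p = 0.045). RHBDF1 read 8.15, 8.12 and 8.15 at 24 h and 8.77, 8.74 and 8.68 at 48 h. The TIMP2 call was lost in 10 alternatives, and the calls of RHBDF1 and TIMP3 in none. In RHOXF1 cells 2 of the 17 were called, beside 4.42% of named clusters. RHBDF1 rose by 0.44 (adjusted p = 0.00982) and the convertase PCSK5 fell by 0.29 (adjusted p = 0.0423). Both calls were lost without replicate 3 of 24 h. In RHOXF2 cells 0 were called, beside 1.24% of named clusters.

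Gamma-secretase is the complex that cuts many stubs left by ADAM shedding. Of its 5 measured subunits 1 was called between the times in control cells, a share near the 17.8% of all named clusters. That subunit, PSEN2, fell by 0.63 (SE 0.13, adjusted p = 0.00363), from 7.66, 7.63 and 7.63 to 7.10, 6.91 and 7.02. It differed by -0.36 in RHOXF1 cells (adjusted p = 0.118) and by -0.24 in RHOXF2 cells (adjusted p = 0.384). Of 13 measured sperm and acrosome genes, limma called 0 in the 4 comparisons with control, beside at most 0.0943% of named clusters. Between the times it called 0 as well, beside 17.8% in control, 4.42% in RHOXF1 and 1.24% in RHOXF2 cells. The smallest p against control was that of ACRV1, an acrosome protein gene, at -0.23 for RHOXF2 at 24 h (SE 0.09, adjusted p = 0.561).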
